A study of Mus musculus with 87 samples.

Results

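The genes described here are 8 members of the Pax family, Pax1, Pax2, Pax3, Pax5, Pax6, Pax7, Pax8 and Pax9, out of 26171 gene symbols listed in each of 13 tables of RNA-seq comparisons. They were chosen by name, with earlier results of these data known, and all 8 were found in all 13 tables. Pax4, the remaining gene of the family, was not among them.

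The samples came from the mouse embryonic stem cell (ESC) line 129-B13 and from neuronal precursors (NP) made from it. ESC were kept in 20% serum with the cytokine LIF, and NP were collected on day 8 of a protocol that added retinoic acid on day 4. By the labels, the groups differ from wild type (WT) in Suz12, a core subunit of the Polycomb complex PRC2. CSex4 cells include exon 4 of Suz12 constitutively, Deltaex4 cells lack exon 4, and KO cells are a full Suz12 knock-out. KO-L and KO-S are knock-out cells that received the long or the short Suz12 isoform back, and KO-L3D and KO-S3D are such rescues, placed in the Rosa26 locus, that carry what the labels call the 3D mutation. In ESC there were 3 WT, 3 KO and 2 samples of each of the other 6 groups, and in NP there were 4 WT and 2 samples each of KO, KO-S, KO-L, Deltaex4 and CSex4. Nothing in the labels says whether samples of a group are separate clones or cultures, so p-values measure the spread between these samples, which may be technical. ChIP-seq entered as 1 list of Suz12 regions and 1 list of H3K27me3 regions from ESC.

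Pax genes encode transcription factors that bind DNA through a paired domain, and they pattern the embryo. Pax1 and Pax9 mark sclerotome and pharyngeal pouches, Pax2, Pax5 and Pax8 act at the midbrain-hindbrain boundary and in kidney, B cells and thyroid, Pax3 and Pax7 mark the dorsal neural tube, neural crest and muscle progenitors, and Pax6 marks forebrain, eye and ventral spinal cord progenitors. PRC2 places methyl groups on lysine 27 of histone H3, a mark of repressed developmental genes in ESC, where promoters of such genes are often rich in CG pairs.

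The stretch around a transcription start site from 250 bases before to 50 bases after it was available for 7 of the 8 members (RefSeq, GRCm38.p6), with 10 start sites in all. Promoters of 4 members are shown because these genes moved in opposite directions in NP without Suz12 (Pax1 and Pax9 against Pax5 and Pax7) and because listed Suz12 and H3K27me3 regions cover the gene's start site in each case. CG pairs are in capitals. The Pax1 promoter lies at chr2:147364744-147365043 on the plus strand, that of Pax9 at chr12:56695221-56695520 on the plus strand, that of Pax5 at chr4:44710645-44710944 on the minus strand and that of Pax7 at chr4:139832919-139833218 on the minus strand.
Pax1: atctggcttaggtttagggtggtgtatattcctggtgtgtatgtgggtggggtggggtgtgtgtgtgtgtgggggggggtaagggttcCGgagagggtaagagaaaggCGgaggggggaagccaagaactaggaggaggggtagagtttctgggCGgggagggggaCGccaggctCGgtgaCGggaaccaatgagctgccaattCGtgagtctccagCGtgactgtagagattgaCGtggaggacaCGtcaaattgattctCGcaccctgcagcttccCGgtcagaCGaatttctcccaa
Pax9: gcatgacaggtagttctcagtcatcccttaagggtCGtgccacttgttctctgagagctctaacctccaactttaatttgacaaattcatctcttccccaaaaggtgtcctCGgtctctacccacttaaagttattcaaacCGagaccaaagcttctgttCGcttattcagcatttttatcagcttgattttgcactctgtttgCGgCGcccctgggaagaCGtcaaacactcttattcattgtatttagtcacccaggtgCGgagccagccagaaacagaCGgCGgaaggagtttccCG
Pax5: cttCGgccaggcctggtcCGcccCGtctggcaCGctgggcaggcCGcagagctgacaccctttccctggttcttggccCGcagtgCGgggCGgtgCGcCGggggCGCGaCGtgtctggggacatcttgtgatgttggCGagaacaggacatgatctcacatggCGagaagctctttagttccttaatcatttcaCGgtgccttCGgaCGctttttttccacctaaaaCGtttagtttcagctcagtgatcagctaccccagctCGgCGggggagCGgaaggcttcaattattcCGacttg
Pax7: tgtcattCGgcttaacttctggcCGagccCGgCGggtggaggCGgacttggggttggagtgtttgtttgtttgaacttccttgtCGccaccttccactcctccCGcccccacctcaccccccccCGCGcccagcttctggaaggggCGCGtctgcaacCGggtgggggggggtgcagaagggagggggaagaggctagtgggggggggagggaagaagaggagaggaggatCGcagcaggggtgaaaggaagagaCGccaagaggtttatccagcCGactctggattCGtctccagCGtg
Pax1 holds 13 CG pairs, Pax9 11, Pax5 23 and Pax7 17, against a median of 7 over all 32851 promoters of the same length. At least as many were held by 37.9% of these promoters for Pax1, 41.4% for Pax9, 21.5% for Pax5 and 31.4% for Pax7. Counts over the 10 member promoters ran from 7, at Pax8 and at 1 of the 3 Pax2 start sites, to 30 at another Pax2 start site.

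Both ChIP-seq lists contained regions at all 8 members (plot of regions along the genes). A Suz12 region lay within 2500 bp of the gene body of 8 of 8 members, against 12.2% of 20992 genes, and an H3K27me3 region did so for 8 of 8, against 23.0%. At the start site itself (± 500 bp) both kinds of region were present for all 7 members with a known start, against 9.12% of 16829 genes for Suz12 and 17.2% for H3K27me3. The widest H3K27me3 region of each member was broad: 36426 bp at Pax3, 34631 bp at Pax2, 26527 bp at Pax9, 23875 bp at Pax6, 23230 bp at Pax7, 22696 bp at Pax5 and 14741 bp at Pax1, where the median of the list was 3144.5 bp. That median is over single regions and not over the widest region of each gene. Other regions at the members were narrower, down to 2941 bp at Pax7. Among the widest regions of the 8 members, that of Pax8 was the narrowest, 5801 bp, which was still wider than 81.9% of the 6882 listed regions. For Suz12 the widest region was 23094 bp at Pax2, 17560 bp at Pax7 and 17119 bp at Pax3, and the smallest of the 8 widest was again at Pax8, 3814 bp, with a list median of 2307 bp over 2865 regions. A second Suz12 region at Pax1 was 1957 bp. Whether a listed region is higher or lower in a mutant is not stated with the lists, so they are read only as positions, in ESC.

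**Figure D1:**
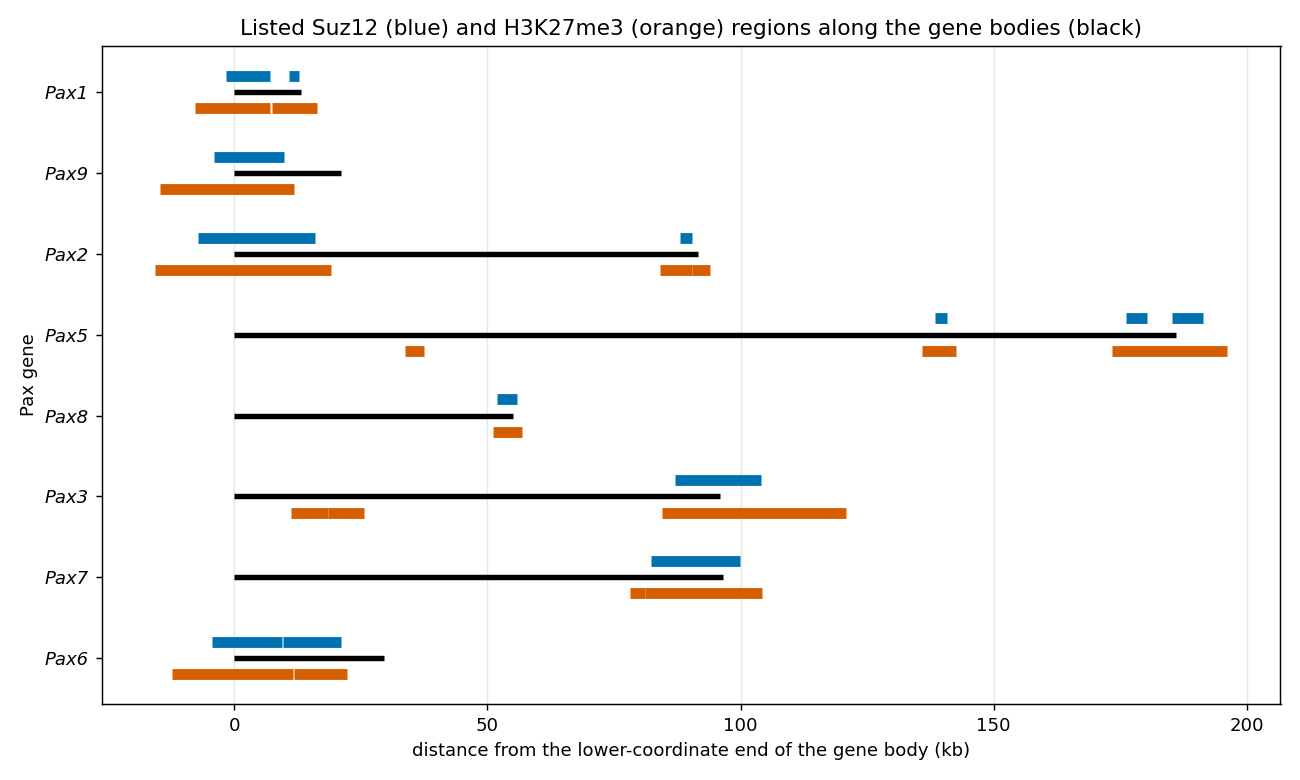
Suz12 regions (blue) and H3K27me3 regions (orange) along the gene bodies (black) of the 8 Pax genes, with distance in kb from the end of the gene body that has the lower coordinate. Each gene has at least 1 region of both kinds, the widest being the 36426 bp H3K27me3 region at Pax3 and the narrowest gene-wide set being at Pax8.

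Suz12, the targeted gene, was read in every comparison as a check of the labels. Its log2 fold change in the authors' deposited tables was -1.82 ± 0.22 in ESC KO against WT (adjusted p = 8.21e-15), -2.14 ± 0.33 in NP KO against WT (adjusted p = 5.63e-09), 1.45 ± 0.27 in NP WT replicates 3 and 4 against KO (adjusted p = 1.24e-06), and 1.35 ± 0.21 and 1.09 ± 0.20 in NP KO-L and KO-S against KO (adjusted p = 2.07e-09 and 3.22e-07). In ESC it was lower than in WT in KO-L and KO-S as well (-1.05 ± 0.28 and -0.83 ± 0.27, adjusted p = 0.0143 and 0.0345, authors' deposited tables). In the libraries labelled KO-L3D it was -1.85 ± 0.28 (adjusted p = 3.84e-09, authors' deposited table), next to the value in KO, so Suz12 RNA does not bear out a rescue there. The other values did not pass: 0.02 ± 0.31 in CSex4, -1.28 ± 0.40 in Deltaex4 and -0.06 ± 0.42 in KO-S3D in ESC, and 0.70 ± 0.30 in CSex4 and -0.61 ± 0.33 in Deltaex4 in NP (adjusted p = 0.995, 1.000, 0.974, 0.193 and 1.000, authors' deposited tables). Summed over genes, the mean normalised reads per library were between 26085140 and 31499803 across tables. In 6 of the 7 ESC tables, genes read once in 1 of the 3 WT libraries had log2 fold changes between -0.23 and 0.06, as for a library with no partner in a paired fit, so those effects rest on 2 WT libraries. Levels below are normalised reads, recovered per library as whole reads divided by the table's size factor and brought to 1 scale within ESC and 1 within NP; letters a to d name libraries and carry no replicate order.

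Before the NP results, 3 things about the libraries bear on them. NP WT libraries a and b (replicates 1 and 2) were unlike each other: Fabp7, a radial glia gene, was at 566 in a and 2921 in b, and Tdgf1, a pluripotency gene, at 364 in a and 102 in b. WT c and d (replicates 3 and 4), which the authors set against the same KO libraries in another table, were closer on a log scale to b than to a for Pax2, Pax3, Pax5, Pax7 and Pax8. In the 2 NP KO libraries the neural precursor markers Hes5 (2.03 and 1.14) and Fabp7 (1.01 and 4.55) were near 0. The other neural precursor markers recovered were not: Sox1 was at 303 and 706 in KO against 779 and 737 in WT a and b, and Sox3 at 260 and 907 against 1384 and 3074. Fewer cells of a type and less RNA per cell cannot be told apart in these bulk samples.

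In ESC without Suz12, 4 of the 8 Pax genes rose and 0 fell. Of all genes tested in the authors' deposited table of ESC KO against WT, 11.0% were called higher and 7.27% lower at an adjusted p under 0.05. The median log2 fold change of the 8 members was 2.65, against 0.01 over all tested genes. The members called were Pax1, Pax2, Pax3 and Pax9.

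Pax1, the sclerotome gene, had 6.67, 12.0 and 1.12 normalised reads in the 3 WT libraries and 23.1, 48.0 and 32.2 in the 3 KO libraries. The authors' deposited table gives it a log2 fold change of 2.53 ± 0.89 (adjusted p = 0.0281). Its paralogue Pax9, needed for pharyngeal pouch and tooth development, was at 1.91, 0.998 and 4.48 in WT and 29.4, 22.0 and 31.1 in KO. For Pax9 the authors' deposited table has 3.59 ± 0.99 (adjusted p = 0.00315). WT and KO libraries did not overlap for either gene, and all levels were low. The share of all genes whose libraries do not overlap was not computed. Here and below, a lack of overlap therefore only describes the libraries.

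Pax2, a kidney and midbrain-hindbrain gene, was at 2.86, 3.99 and 6.72 in WT and 30.2, 26.0 and 33.2 in KO, a log2 fold change of 2.77 ± 0.83 (adjusted p = 0.00750) in the authors' deposited table. Pax3, a dorsal neural tube and neural crest gene, was at 5.72, 0.998 and 2.24 in WT and 42.7, 18.0 and 26.0 in KO, with 3.40 ± 0.93 (adjusted p = 0.00304) in the authors' deposited table. Neither gene's groups overlapped. Pax7, the paralogue of Pax3, did not overlap either, with 2.86, 0.998 and 0 in WT and 10.7, 9.99 and 14.5 in KO, but with these few reads its 3.52 ± 1.46 did not pass (adjusted p = 0.0749, authors' deposited table).

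For the other 3 members the WT and KO libraries overlapped and no call was made. Pax6, the eye and forebrain gene, was at 157, 76.9 and 203 in WT and 81.8, 48.0 and 115 in KO, with -0.82 ± 0.50 (adjusted p = 0.282) in the authors' deposited table. Pax5, the B cell regulator, had 0.47 ± 0.82 and Pax8, the thyroid regulator, 0.79 ± 0.56 there (adjusted p = 0.772 and 0.369, authors' deposited table). Lineage markers in the same table included 3 of 4 neural crest genes called higher, 2 of 5 mesoderm, 2 of 5 trophoblast, 0 of 5 endoderm, 1 of 7 neural precursor and 3 of 6 pluripotency genes, with 0 of these lists' genes called lower; their part in the Pax changes was not tested.

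**Figure D2:**
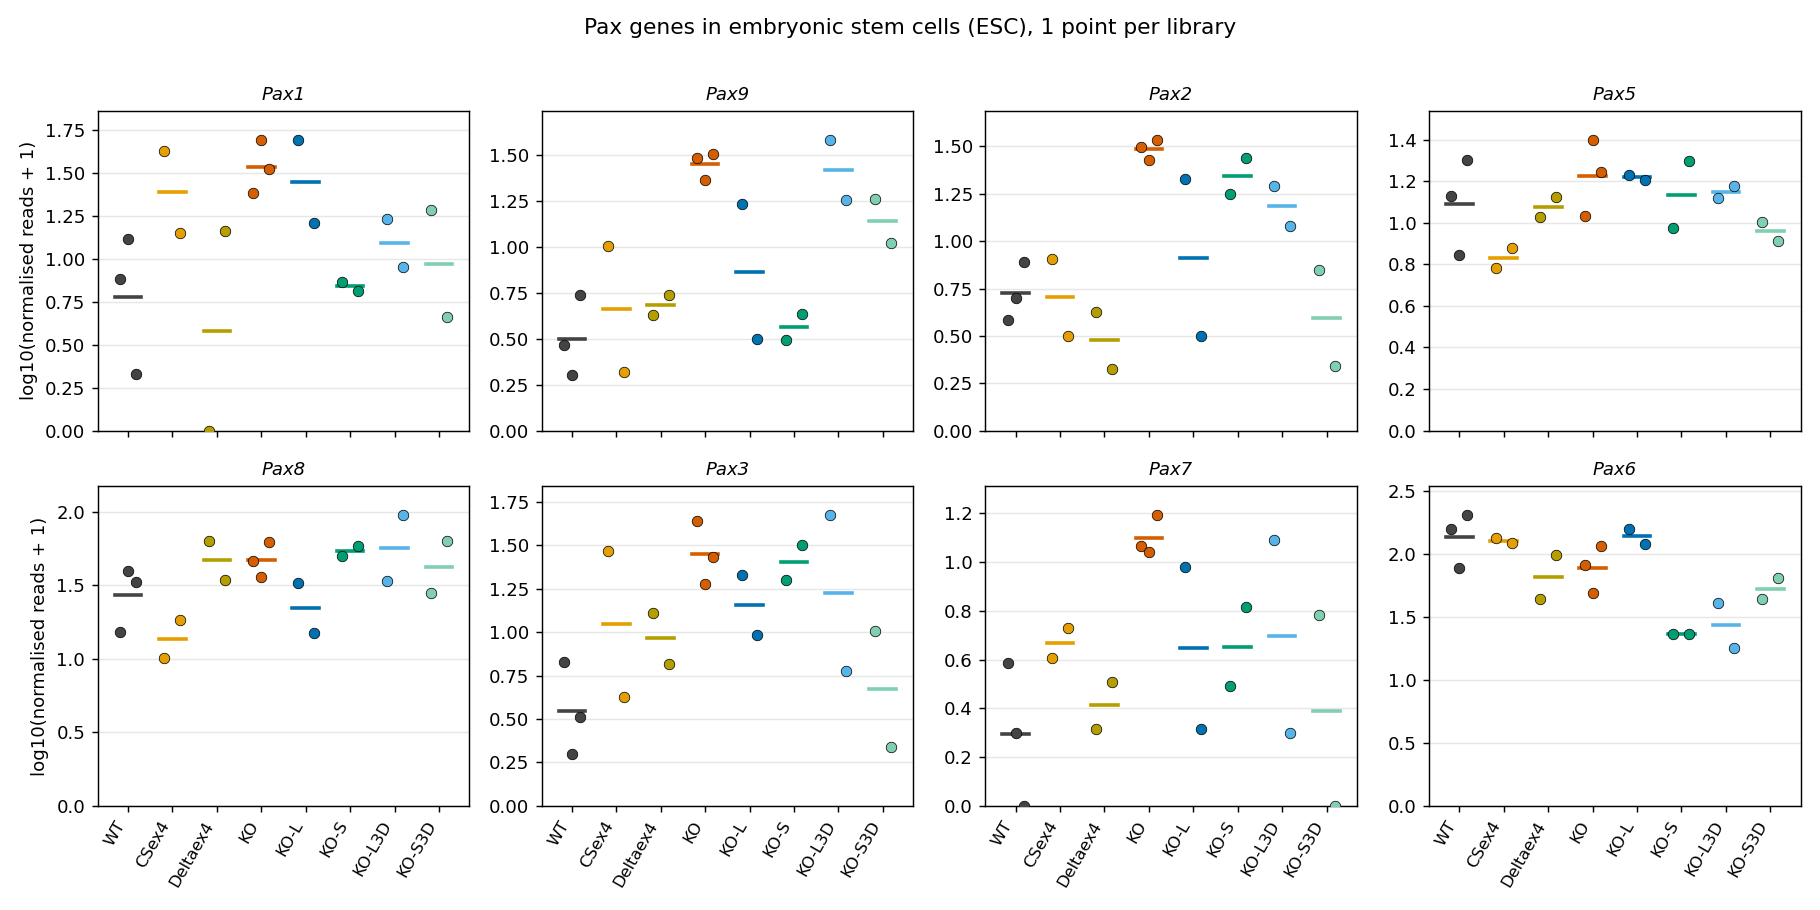
Levels of the 8 Pax genes in ESC as log10(normalised reads + 1), 1 point per library by group, with bars at the mean of the log values. For Pax1, Pax9, Pax2, Pax3 and Pax7 the 3 KO points sit above the 3 WT points, while Pax6, Pax5 and Pax8 overlap.

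In NP without Suz12, most of the family was lower than in WT. In the authors' deposited table of NP KO against WT replicates 1 and 2, 5 of 8 members were called lower (Pax3, Pax5, Pax6, Pax7 and Pax8), where 9.85% of all tested genes were, and 1 was called higher (Pax1), where 11.6% were. Against WT replicates 3 and 4, in the authors' deposited table that states the contrast as WT against KO, 6 members were higher in WT (Pax2 in addition; 15.6% of all genes) and 2 were lower in WT (Pax1 and Pax9; 17.3% of all genes). Both tables use the same 2 KO libraries, so they are not independent. The median log2 fold change over the 8 members was -2.77 in the first table and 3.55 in the second, where the sign is reversed, against -0.01 and 0.00 over all tested genes.

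Pax5 and Pax7 had the largest falls. Pax5 was at 194, 697, 695 and 1004 normalised reads in WT a to d and at 6.09 and 9.09 in the 2 KO libraries. Its log2 fold change was -5.62 ± 0.70 (adjusted p = 7.41e-14) with WT replicates 1 and 2 in the authors' deposited table, a 49.3-fold drop. Pax7 was at 235, 1631, 816 and 1060 in WT and 18.3 and 27.3 in KO. The authors' deposited table gives Pax7 -4.78 ± 0.64 (adjusted p = 4.10e-12). Every WT library lay above both KO libraries for each gene.

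Pax3 was at 809, 3578, 2316 and 3250 in WT a to d and 297 and 233 in KO, with -2.70 ± 0.45 (adjusted p = 7.47e-08) in the authors' deposited table. Pax6 was at 1863, 2825, 4167 and 4256 in WT and 332 and 309 in KO, with -2.84 ± 0.37 (adjusted p = 5.34e-13) in the authors' deposited table. Pax8 was at 80.3, 481, 377 and 551 in WT and 26.4 and 23.9 in KO, where its value fell by 3.00 ± 0.69 on the log2 scale (adjusted p = 2.07e-04) in the authors' deposited table. WT a was the lowest of the 4 WT libraries for all 5 of these genes, and still above both KO libraries.

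How far these genes fell rests on which WT library is used. As a log2 ratio of group means without the paired fit, Pax3 was -3.05, -3.75 without WT a and -1.61 without WT b. The same 3 values were -5.36, -6.16 and -3.37 for Pax7, -3.48, -4.26 and -1.68 for Pax8, -5.87, -6.52 and -4.67 for Pax5, and -2.87, -3.14 and -2.54 for Pax6. Against WT c and d, in the authors' deposited table of WT against KO, the 5 log2 fold changes (higher in WT) were 3.38 ± 0.32 for Pax3, 5.38 ± 0.41 for Pax7, 4.18 ± 0.48 for Pax8, 6.81 ± 0.53 for Pax5 and 3.72 ± 0.28 for Pax6. All 5 directions held in each of these. For the ratios that was fixed in advance, because every WT library lay above both KO libraries for these genes.

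Pax2 gave no call with WT a and b but did with WT c and d. It was at 285, 1261, 1076 and 1413 in WT a to d and at 439 and 449 in KO, so that WT a alone lay below the KO libraries. The authors' deposited tables give -0.44 ± 0.51 for KO against WT replicates 1 and 2 (adjusted p = 0.623) and 1.47 ± 0.31 for WT replicates 3 and 4 against KO (adjusted p = 2.51e-05). The KO libraries thus held Pax2 at a level within the WT range, which was not so for its paralogues Pax5 and Pax8.

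Pax1 was the member called higher in NP KO as well. It was at 2.68, 4.88, 3.93 and 3.01 in WT a to d and 64.9 and 34.1 in KO, with 3.70 ± 1.24 (adjusted p = 0.0173) in the authors' deposited table. Pax9 was at 50.0, 6.83, 36.7 and 18.1 in WT and 95.4 and 97.7 in KO, above all 4 WT libraries. The authors' deposited tables have 2.29 ± 0.91 for Pax9 in KO against WT replicates 1 and 2 (adjusted p = 0.0537) and -1.89 ± 0.75 in WT replicates 3 and 4 against KO (adjusted p = 0.0394), so only the second passed.

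Marker lists moved with these changes. Of 7 neural precursor genes 6 were called lower in NP KO in the authors' deposited table of KO against WT replicates 1 and 2 and 0 higher, and the summed level of the 4 of them recovered per library (Sox1, Sox3, Hes5 and Fabp7) was 566 and 1618 in KO against 3295 and 7856 in WT a and b. Of 5 endoderm genes 3 were called higher and 1 lower, of 5 trophoblast genes 3 higher and 0 lower, of 6 pluripotency genes 1 higher and 0 lower, and of 4 neural crest genes 0 higher and 1 lower (Tfap2b, -5.09 ± 0.53). The 5 mesoderm genes gave 0 calls. In the authors' deposited table of WT replicates 3 and 4 against KO, 4 of 6 pluripotency, 5 of 5 trophoblast, 3 of 5 endoderm and 1 of 5 mesoderm genes were higher in KO and 6 of 7 neural precursor and 2 of 4 neural crest genes lower in KO, with 0 in the other direction. The 4 neural crest genes summed to 297 and 149 in KO and 747 and 1837 in WT a and b. Sox17 and Foxa2, the 2 of 5 endoderm genes recovered per library, summed to 2623 and 3904 in KO and 1891 and 573 in WT a and b. On the scale of the other table they summed to 2818 and 4155 in KO and 1965 and 1418 in WT c and d. Afp, not recovered per library, was the endoderm gene called lower in KO against WT replicates 1 and 2 (-2.25 ± 0.33, authors' deposited table). The part of these cell types in the Pax changes was not tested.

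**Figure D3:**
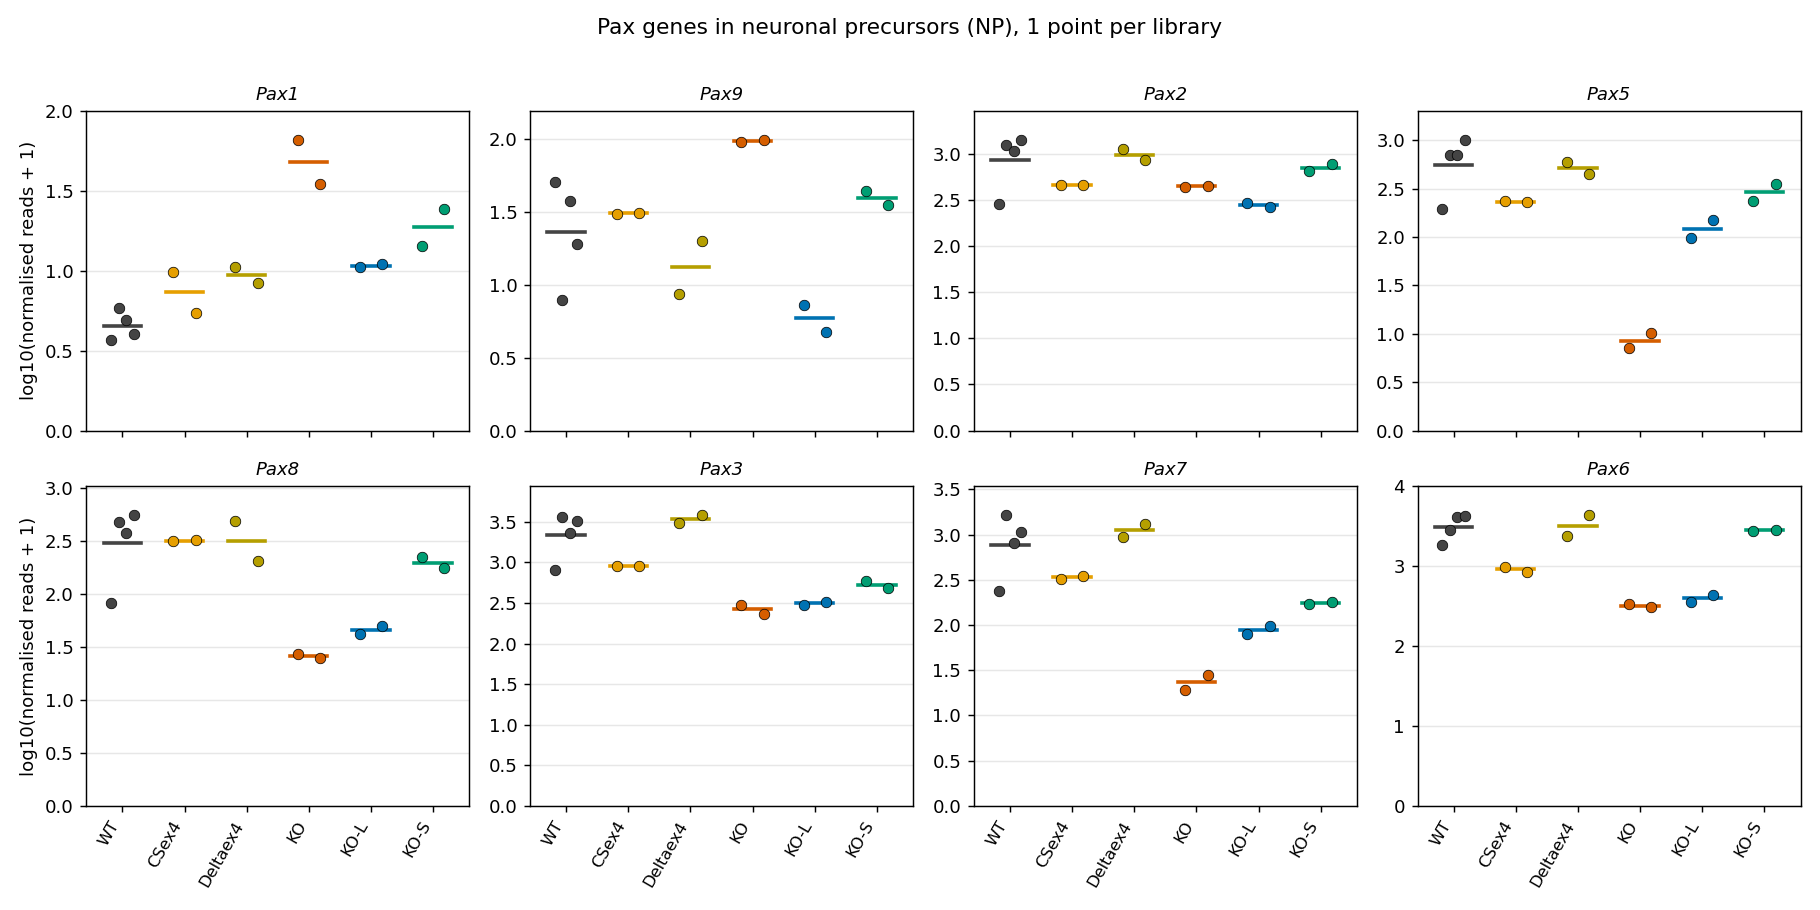
Levels of the 8 Pax genes in NP as log10(normalised reads + 1), 1 point per library by group, with bars at the mean of the log values; the 4 WT points are libraries a to d from left to right. The KO points of Pax5, Pax7, Pax8, Pax3 and Pax6 lie below all WT points and those of Pax1 and Pax9 above them, and the KO-S points of Pax6 lie within the WT range.

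The KO effect itself differed between NP and ESC for 6 of the 8 members. The difference of the 2 log2 fold changes was tested with a Wald test over 20188 genes with Benjamini-Hochberg adjustment, in which 5.49% of all genes had a negative and 4.16% a positive difference at an adjusted p under 0.05. Negative differences were found for Pax7 (-8.31 ± 1.59, adjusted p = 1.02e-05), Pax3 (-6.10 ± 1.04, 3.90e-07), Pax5 (-6.09 ± 1.08, 1.41e-06), Pax8 (-3.79 ± 0.89, 6.09e-04), Pax2 (-3.21 ± 0.97, 0.0144) and Pax6 (-2.02 ± 0.62, 0.0163). Pax3 was called higher in ESC KO and lower in NP KO with either pair of WT libraries, and Pax2 was so with WT replicates 3 and 4. For Pax1 (1.17 ± 1.53, adjusted p = 0.839) and Pax9 (-1.30 ± 1.34, 0.749) no difference was found, with errors wide enough to hide a sizeable one. The 6 calls were the same with NP WT replicates 3 and 4, where 8.16% of genes were negative and 7.38% positive. Among genes with a mean level of at least 10 in both tables, which leaves Pax7 out, 5 members were negative and 0 positive (7.97% and 6.37% of genes).

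**Figure D4:**
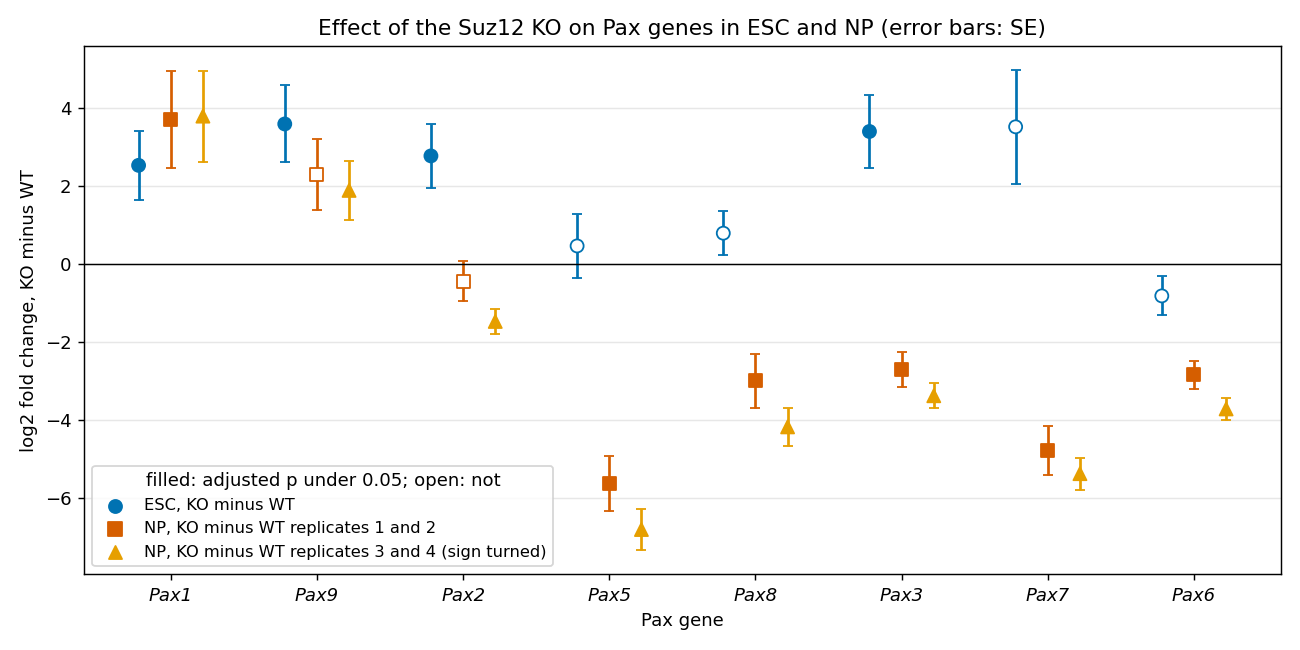
Log2 fold change (KO minus WT) of the 8 Pax genes with SE, from the authors' deposited tables, in ESC (circles), in NP with WT replicates 1 and 2 (squares) and in NP with WT replicates 3 and 4 (triangles, sign turned); filled symbols have an adjusted p under 0.05. Pax1 and Pax9 are positive in all 3, Pax2, Pax3, Pax5, Pax7 and Pax8 are positive in ESC and negative in NP, and Pax6 is negative in all 3.

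Against the KO in NP, more Pax genes were called higher with the short isoform than with the long one, and the rescues themselves differed for 2 of them, Pax2 and Pax6. Of the 8 members, 6 were called higher in KO-S than in KO (16.4% of all genes) and 0 lower (18.0%) in the authors' deposited table. In that of KO-L against KO, 2 were called higher (Pax5 and Pax7; 10.9% of all genes) and 1 lower (Pax9; 13.8%). Both tables use the same KO libraries, as do the tables of KO against WT.

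Pax6 was at 332 and 309 in KO, 356 and 443 in KO-L against 2771 and 2881 in KO-S, the last within the WT range of 1863 to 4256. In the authors' deposited tables its log2 fold change against KO was 0.31 ± 0.33 in KO-L (adjusted p = 0.577) and 3.14 ± 0.20 in KO-S (adjusted p = 2.61e-54). The difference between the rescues, a test chosen after the values were seen, was 2.83 ± 0.38 (Wald test, adjusted p = 3.36e-11; 3.91% of all genes were called positive and 3.13% negative).

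Pax5 rose in both rescues. It went from 6.09 and 9.09 in KO to 97.1 and 149.6 in KO-L against 233 and 355 in KO-S, with 4.02 ± 0.75 (adjusted p = 1.27e-06) and 5.27 ± 0.58 (adjusted p = 4.68e-18) in the authors' deposited tables. Pax7 was at 79.2 and 97.3 in KO-L against 171 and 177 in KO-S, with 1.97 ± 0.73 (adjusted p = 0.0298) and 2.96 ± 0.57 (adjusted p = 2.08e-06) in the authors' deposited tables. Both Pax7 rescues stayed below all 4 WT libraries. The rescues did not differ beyond their error for Pax5 (1.25 ± 0.95, adjusted p = 0.682) or Pax7 (0.98 ± 0.92, adjusted p = 0.823).

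Pax8 was at 41.2 and 48.6 in KO-L against 221 and 174 in KO-S, with 0.83 ± 0.88 (adjusted p = 0.575) and 2.97 ± 0.53 (adjusted p = 3.22e-07) in the authors' deposited tables. Pax3 was at 301 and 322 in KO-L against 585 and 476 in KO-S, with 0.24 ± 0.36 (adjusted p = 0.719) and 1.00 ± 0.29 (adjusted p = 0.00279) in the authors' deposited tables. Both genes were called in KO-S alone, yet the test between the rescues did not pass for Pax8 (2.13 ± 1.03, adjusted p = 0.277) or Pax3 (0.76 ± 0.46, adjusted p = 0.476). The KO-S libraries stayed below all WT libraries for Pax3.

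The rescues differed for Pax2, which passed against KO in KO-S and not in KO-L. It was at 289 and 263 in KO-L against 657 and 766 in KO-S, around the KO libraries at 439 and 449. The authors' deposited tables give -0.69 ± 0.32 in KO-L (adjusted p = 0.113) and 0.68 ± 0.25 in KO-S (adjusted p = 0.0266). The difference between the rescues was 1.36 ± 0.41 (Wald test, adjusted p = 0.0180).

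Of the members that were high in NP KO, Pax9 fell in KO-L. It went from 95.4 and 97.7 in KO to 6.33 and 3.74 in KO-L against 43.1 and 34.1 in KO-S, with -4.27 ± 0.88 (adjusted p = 1.42e-05) and -1.33 ± 0.64 (adjusted p = 0.0936) in the authors' deposited tables. Pax1 was at 9.50 and 9.97 in KO-L against 13.3 and 23.4 in KO-S, and its -2.28 ± 1.00 and -1.41 ± 0.92 did not pass (adjusted p = 0.0814 and 0.244, authors' deposited tables). Between the rescues, Pax9 differed by 2.94 ± 1.09 (adjusted p = 0.0819) and Pax1 by 0.88 ± 1.36 (adjusted p = 0.996).

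Marker lists were read in the rescues too, with no test between them. By the authors' deposited tables, 7 of 7 neural precursor genes were called higher in KO-S than in KO and 5 in KO-L, where 1 was lower. Of 6 pluripotency genes 4 were called higher in KO-L and 0 lower, and in KO-S 0 were higher and 2 lower. Trophoblast genes were lower in KO-S for 5 of 5, and in KO-L 2 were lower and 1 higher. Of 5 endoderm genes KO-L had 3 lower, KO-S had 4 lower, and neither had any higher. Of 4 neural crest genes KO-L had 2 higher, KO-S had 1 higher, and neither had any lower. Of 5 mesoderm genes 1 was higher in KO-L and 0 lower, and 1 was higher and 1 lower in KO-S. The 4 recovered neural precursor genes summed to 737 and 996 in the 2 KO-L libraries, between the 504 and 1464 of the KO libraries. On the scale of the other table, the sums were 3852 and 4123 for KO-S against 531 and 1534 for KO. Their part in the Pax values was not tested.

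**Figure D5:**
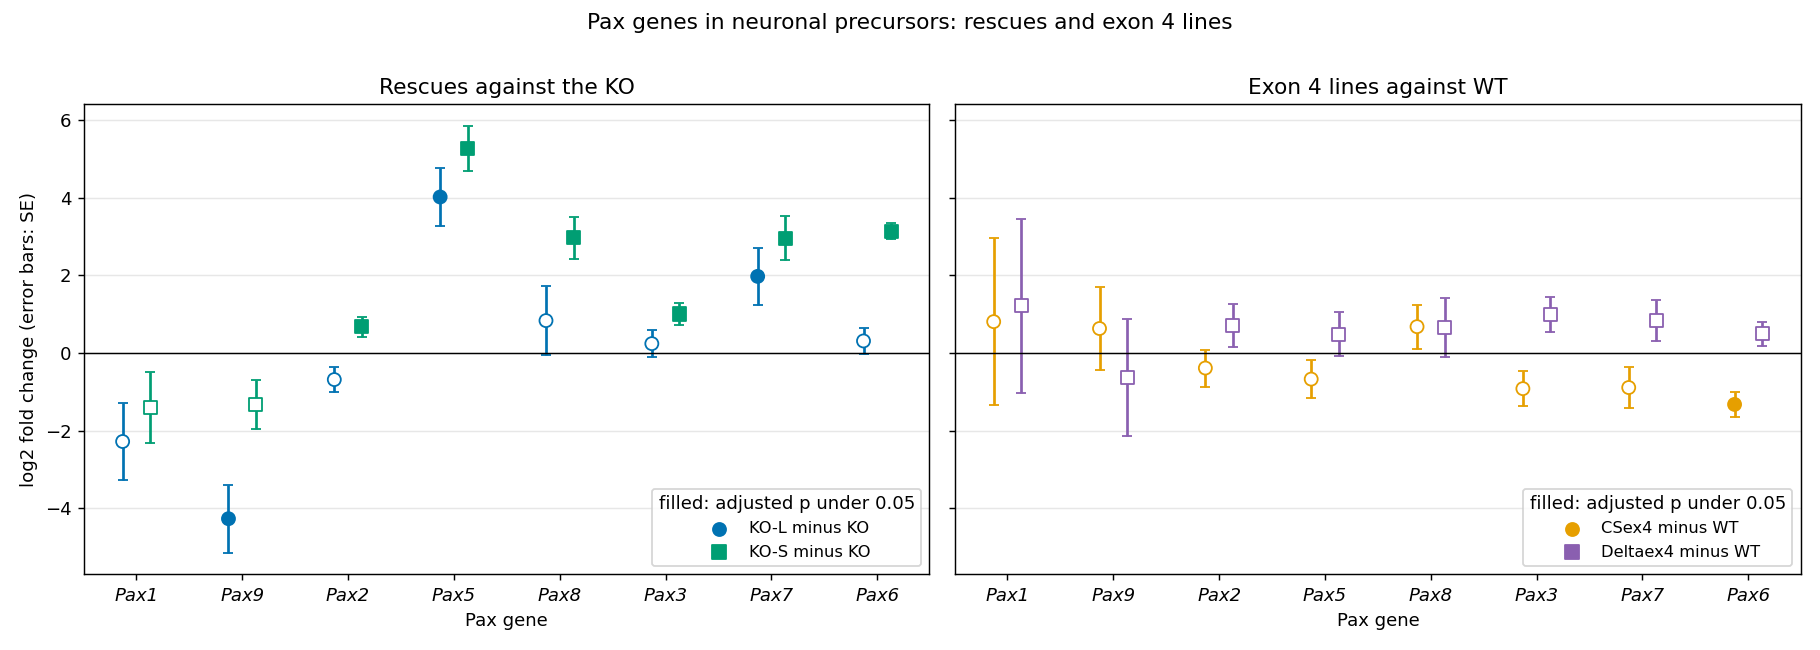
Log2 fold change with SE of the 8 Pax genes in NP, from the authors' deposited tables, for the rescues against KO (left) and for the exon 4 lines against WT (right); filled symbols have an adjusted p under 0.05. Pax6 is near 0 in KO-L and above 3 in KO-S, and on the right it is the member called in CSex4.

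With Suz12 exon 4 fixed in place or removed, little of the family changed in NP. In the authors' deposited table of NP CSex4 against WT 1 of 8 members was called lower, Pax6 (1.45% of all genes were), and 0 were called higher (4.08%). In that of Deltaex4 0 members were called in either direction (0.0289% of all genes higher, 0.052% lower), with 1 member, Pax3, at an unadjusted p under 0.05. Both tables share WT replicates 1 and 2.

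Pax6 was at 983 and 852 in CSex4 and 2396 and 4345 in Deltaex4, against 1863, 2825, 4167 and 4256 in WT a to d. Both CSex4 libraries lay below all 4 WT libraries, and the Deltaex4 libraries lay inside the WT range or just above it. The authors' deposited tables give Pax6 -1.33 ± 0.33 in CSex4 (adjusted p = 0.00192) and 0.49 ± 0.32 in Deltaex4 (unadjusted p = 0.121). Without WT a the log2 ratio of means in CSex4 was -1.62, and without WT b -1.03. The lines differed from each other by 1.82 ± 0.45 (Wald test chosen after the values were seen, adjusted p = 0.00989; 0.315% of all genes were called positive and 0.903% negative).

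Pax3 was at 898 and 904 in CSex4 and 3042 and 3791 in Deltaex4. Its log2 fold change was -0.92 ± 0.45 in CSex4 (adjusted p = 0.291) and 1.00 ± 0.45 in Deltaex4 (unadjusted p = 0.0280) in the authors' deposited tables, and the difference between the lines, 1.92 ± 0.64, did not pass (adjusted p = 0.130). Pax7 was at 324 and 347 in CSex4 and 941 and 1309 in Deltaex4, and Pax5 at 233 and 229.6 and 592 and 450.3. For Pax2, Pax3, Pax5, Pax7, Pax8 and Pax9 the sign of the CSex4 ratio turned on whether WT a or WT b was left out, so that no direction can be read. In the authors' deposited table of CSex4, 6 of 6 pluripotency genes were called higher and 2 of 7 neural precursor genes lower. Of 5 trophoblast genes 1 was called higher, of 5 mesoderm genes 1 higher, of 4 neural crest genes 1 lower and of 5 endoderm genes 0 in either direction. Zfp42 and Tdgf1, the 2 of 6 pluripotency genes recovered per library, summed to 4664 and 4677 in CSex4 against 1618 and 491 in WT a and b. The part of these cell types in the Pax6 value was not tested.

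Among the other ESC mutants, the only member called was Pax6. The authors' deposited tables call Pax6 lower in KO-S (1 of 8 members, 3.63% of all genes lower; 0 members and 4.28% of genes higher) and in the libraries labelled KO-L3D (1 of 8, 10.1% lower; 0 and 8.22% higher). Pax6 was at 22.1 and 22.1 with the short isoform (KO-S) and 40.3 and 17.0 in the libraries labelled KO-L3D, where the Suz12 value was next to that in KO, against 157, 76.9 and 203 in WT, so neither group reached the lowest WT library. Its log2 fold changes were -2.51 ± 0.64 (adjusted p = 0.00292) and -2.22 ± 0.73 (adjusted p = 0.0190) in the authors' deposited tables. In KO-L, Pax6 was at 157 and 120.4, inside the WT range, as was CSex4 at 134 and 122, while Deltaex4 was at 43.0 and 98.3 and KO-S3D at 43.4 and 63.2.

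No member was called in ESC CSex4 (1.72% of genes higher, 0.695% lower), Deltaex4 (0.0% and 0.0%), KO-L (1.46% and 0.771%) or KO-S3D (2.05% and 1.18%) in the authors' deposited tables, and none had an unadjusted p under 0.05 in these 4. For many members these tables hold no adjusted p: 2 of the 8 have one in CSex4, KO-L and KO-S3D, 3 in KO-S and 5 in the table labelled KO-L3D. Pax3 had the largest value that was not called, 3.96 ± 1.67 in KO-S (unadjusted p = 0.0176, authors' deposited table), with 19.0 and 30.9 normalised reads in KO-S. Libraries of 1 group could differ widely at these levels: Pax9 was at 16.0 and 2.15 in the 2 KO-L libraries, Pax3 at 45.9 and 4.99 in the libraries labelled KO-L3D and Pax2 at 20.3 and 2.15 in KO-L.

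Genes that work with the Pax factors were read from lists, which were chosen with earlier results of these data known. The NP values of these lists are against WT replicates 1 and 2 unless stated. Of 12 genes of the Six-Eya-Dach network, partners of Pax genes in eye, ear and kidney, 4 were called higher and 1 lower in ESC KO in the authors' deposited table, and 1 higher and 5 lower in NP KO (replicates 1 and 2). Six3, an eye field gene, was called higher in both (4.63 ± 1.16 in ESC and 2.66 ± 0.96 in NP, authors' deposited tables), while Six6 (-4.84 ± 1.08) and Eya1 (-2.65 ± 0.53) were lower in NP. The list's median log2 fold change was 0.41 in ESC and 0.01 in NP, against 0.01 and -0.01 over all tested genes.

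Of 12 dorsal neural tube, neural crest and muscle genes linked to Pax3 and Pax7, 9 were called higher and 0 lower in ESC KO, and 1 higher and 3 lower in NP KO, in the authors' deposited tables. Lbx1, a gene of dorsal interneurons and migrating muscle progenitors, had 4.20 ± 1.34 in ESC and -3.47 ± 0.61 in NP (authors' deposited tables), the same turn of sign as Pax3. Msx1 was lower (-1.82 ± 0.61) and Met, a receptor kinase, higher (2.01 ± 0.41) in NP KO in the authors' deposited table. The list's median was 2.02 in ESC and -0.57 in NP. Myf5 and Myod1, the muscle determination genes, were at 0 in the NP table of KO against WT.

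Of 9 midbrain-hindbrain boundary genes linked to Pax2, Pax5 and Pax8, 3 were called higher and 3 lower in ESC KO and 1 higher and 1 lower in NP KO in the authors' deposited tables. En1 (2.48 ± 0.71), Lmx1b (2.26 ± 0.56) and En2 (1.90 ± 0.35) were the ones higher in ESC, and Wnt1, the signal of the boundary, was the one lower in NP (-6.90 ± 0.55, authors' deposited tables). The list's median was 0.85 in ESC and 0.49 in NP. Of 11 kidney and thyroid genes linked to Pax2 and Pax8, 3 were higher and 1 lower in ESC KO and 3 higher and 3 lower in NP KO, with medians of 0.68 and 1.80. Foxe1, a thyroid gene, rose (5.21 ± 0.52) and Lhx1, a kidney and spinal cord gene, fell (-3.82 ± 0.55) in NP in the authors' deposited table, and Gata3 rose in ESC (3.27 ± 0.41).

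Of 13 forebrain, eye and spinal cord genes linked to Pax6, 6 were called higher and 0 lower in ESC KO and 0 higher and 5 lower in NP KO in the authors' deposited tables, with medians of 2.32 and -2.11. Rax (3.66 ± 0.74) and Lhx2 (3.34 ± 0.59), eye field genes, were among those higher in ESC, and Dbx1 (-8.78 ± 0.80) and Neurog2 (-6.98 ± 0.72), progenitor genes of the spinal cord and cortex, among those lower in NP (authors' deposited tables). Of 10 sclerotome and pharyngeal pouch genes linked to Pax1 and Pax9, 3 were higher and 0 lower in ESC KO, Foxc2 (4.31 ± 1.17) and Tbx1 (3.87 ± 0.81) with the largest changes, and 0 were higher and 1 lower in NP KO, Uncx (-2.90 ± 0.68), in the authors' deposited tables; the medians were 1.74 and 0.57. Of 6 B cell genes linked to Pax5, 1 was higher in each cell type, Cd79b in ESC (1.91 ± 0.53) and Ikzf1 in NP (1.74 ± 0.63), and 0 were lower, with medians of 0.70 and 1.60 (authors' deposited tables). With WT replicates 3 and 4 the list counts were different. Called higher and lower in KO were 3 and 5 Six-Eya-Dach genes, 1 and 4 linked to Pax3 and Pax7, and 2 and 2 boundary genes. They were 5 and 3 for kidney and thyroid, 1 and 6 for Pax6, 2 and 2 for sclerotome and pouch, and 1 and 1 for B cell genes. Of all genes, 17.3% were higher and 15.6% lower in KO there (authors' deposited table).

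Across all 13 tables, the genes whose log2 fold changes in the authors' deposited tables came closest to each member's, by root mean square difference among 14523 genes, were as follows. Pax5 was closest to Tagln3 (0.64), Xkr7 (0.64) and Pou2f2 (0.65), where the median of all genes was 3.12. Pax6 was closest to Kif21a, Cracd and Tox3 (0.62 to 0.64, median of all genes 1.97) and Pax8 to Ccdc13, Dclk2 and Msi1 (0.52 to 0.59, median 1.85). Pax2 was closest to Drp2, Galnt16 and Prrt4 (0.70 to 0.78, median 1.40). Pax3, with 2810410L24Rik, Myt1l and Irx1 (1.03 to 1.22, median 2.64), had no gene nearer than 1.03. Pax1 was closest to Tbx20, Plau and Htr1d (0.74 to 0.90, median 2.26), and Pax9 to Gata3, Npas2 and Cebpa (0.76 to 0.80, median 2.30). Pax7 was under the minimum mean level in ESC and was left out. The 3 closest of 14523 genes lie below the median of the same distances by construction, so the median does not measure how close they are. The 13 tables share libraries, so these are descriptions of this set of tables.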

How the data were processed

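PolyA RNA-seq of 32 samples and ChIP-seq of 55 samples underlie the files. The authors' deposited tables hold, per gene, baseMean (a signal: mean read count divided by size factors over the libraries of a comparison), a log2 fold change with its standard error, a p-value and an adjusted p-value; per the file headers these are columns of DESeq2, which the submitters' processing notes name together with TopHat, Bowtie, DiffBind, mm10 and dm3, without roles or versions. Each deposited region carries, per the file headers, a score between 0 and 1 per region at a 5% false discovery rate in DiffBind; what the score tests is not given in the sources used here, and it was used only to rank regions.

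Calls use the authors' adjusted p with a threshold of 0.05. The members and all gene lists were chosen with earlier results of these data known. Named genes were all members, up to 3 called genes per list with the largest absolute change in the ESC KO and NP KO tables, and for each member the 3 most similar genes; 1 gene that met the rule is not reported here. Whole reads per library were recovered from baseMean as the only whole-number combination of the size factors that gives the deposited value; all 104 pairs of member and comparison were recovered to within 6.37e-12, with 32 distinct libraries in 60 places, and 100% of 3250 low genes had 1 solution. These reads were shown, not tested. A chi-square test of recovered reads compared libraries of a group in pairs within each table. It found a difference in all 42 cases, many of which repeat a pair, because the tables share libraries. The smallest chi-square, for ESC KO a and b, was 1.29 per gene over 150 genes with a mean of 16.1 reads. Each library was counted as 1 sample. The test detects spread beyond that of read sampling, and cannot tell separate cultures from separate preparations of 1 culture. Differences between comparisons used a two-sided Wald test with Benjamini-Hochberg adjustment over all genes; where 2 comparisons share libraries the summed variances overstate the error. On simulated data the Wald test recovered 185 of 200 changed genes, with a log2 difference of 4 and a mean level of at least 10 in both cell types. The number of unchanged genes called there is not given here, so this speaks to recovery only. The noise followed the deposited standard errors. Smaller differences, as for Pax2, Pax6 and Pax8, and lower levels, as for Pax7, were not simulated. Promoters and genes came from RefSeq (GRCm38.p6, the assembly of mm10); no promoter was used for Pax3. Python 3.11.15, pandas 2.3.3, NumPy 2.4.6, SciPy 1.17.1 and matplotlib 3.10.9 were used.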

Additional observations from a re-analysis of the deposited data

Results flagged for a closer look

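For 6 genes the effect of the Suz12 KO differed between NP and ESC by a test of the difference itself (Wald test, two-sided, Benjamini-Hochberg adjustment over 20188 genes). The difference, NP minus ESC in log2 units, was -8.31 ± 1.59 for Pax7, -6.10 ± 1.04 for Pax3, -6.09 ± 1.08 for Pax5, -3.79 ± 0.89 for Pax8, -3.21 ± 0.97 for Pax2 and -2.02 ± 0.62 for Pax6. With the other pair of NP WT libraries the values were -8.90 ± 1.52, -6.78 ± 0.98, -7.27 ± 0.98, -4.97 ± 0.74, -4.25 ± 0.88 and -2.90 ± 0.57 in the same order. In none of 8 groups of 4 libraries tested, the NP WT levels of each member, did 1 library stand outside the others by Dixon's criterion. With only 4 libraries this criterion can hardly single out 1, so it does not show that WT a is like the others. WT a was the lowest for 7 of the 8 members and the highest for Pax9.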

How the results depend on the processing

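At an adjusted p under 0.01 the members called fell to 3 higher in ESC KO (from 4) and 5 higher in NP KO-S against KO (from 6). They also fell to 0 lower in ESC KO-L3D, 0 higher in NP KO against WT, 1 lower in NP WT against KO and 1 higher in NP KO-L against KO. All 6 drops follow from the stricter threshold. The share of all genes called at 0.01 is not given here, so these counts are not set against genes in general. With WT replicates 3 and 4 the NP effect of the KO on Pax2 (-1.47) and Pax9 (1.89) passed the threshold, and the cause was not tested. The 30 called pairs of member and comparison kept their direction in log2 ratios of group means with no replicate block, and in those leaving out each library in turn. The libraries of the compared groups did not overlap for these pairs, so leaving out a library could not turn the sign. This therefore does not measure how firm a call is. Of the 104 pairs, 102 lay within 1 SE of the authors' deposited value with no replicate block (median absolute gap 0.22); for example Pax6 in NP KO was -2.87 without the block. Without 1 library the sign of 34 of the 74 pairs that were not called turned. Recovered libraries carry no replicate number, so whether same-numbered samples deviate together was not tested. Pax7 has no value for the NP and ESC difference among genes with a mean level of at least 10 in both tables, which leaves 5 negative differences. ESC members other than Pax6 and Pax8 had at most 57 reads in any library, which limits what can be detected for them.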
